A study of Homo sapiens with 8 samples.

Results

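The genes that load, fire and copy DNA replication origins were examined as a group of 53, chosen by symbol as known parts of the replication machinery. No measured value enters the choice rule, but the list was drawn up with earlier results of these data known. All 53 were among the 58302 genes of the deposited count table, and all 53 passed the filter on low counts, which left 15712 genes tested. RNA was sequenced from HCT116 p53+/+ cells, an established human colon cancer line with intact p53, after 24 hours with MANIO at 1 µM (a compound named here by its code only) or with the solvent, DMSO. There were 4 cultures in each group, which the labels call biological replicates, and both groups share the line, the RPMI medium and the time of collection. The study asked whether transcripts of the p53 response change with the compound.

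Replication starts from origins that are marked by the origin recognition complex (ORC). With the loaders CDC6 and CDT1, ORC places the ring-shaped MCM2-7 complex on DNA in G1, and the kinase CDC7 with its activator DBF4 later turns it into the working helicase, called CMG, by helping to recruit CDC45 and the GINS complex. Polymerase alpha with its primase then lays primers, the clamp loader RFC places the sliding clamp PCNA, and polymerases delta and epsilon copy the strands. Many of these genes are transcribed in late G1 and S phase under E2F factors, and in cells that halt in G1 after p53 activation their transcripts are known to decline through p21 and the RB family. PCNA is in addition a known direct p53 target.

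Most of the replication genes were lower in the MANIO cultures, by small amounts. Of the 53 genes, 43 fell (81.1%), 2 rose and 8 did not pass the test, against 26.8% of all tested genes that fell and 27.8% that rose. A gene is called here when its p in edgeR's quasi-likelihood test, adjusted over all 15712 tested genes by the Benjamini-Hochberg method, is under 0.05. The 2 that rose were PCNA and GINS4. The median log2 fold change (MANIO over DMSO) of the 53 genes was -0.33, beside 0.0043 for all tested genes, and the extremes were RPA3 at -0.77 and PCNA at 0.47. All 4 MANIO libraries lay below all 4 DMSO libraries for 38 of the 53 genes (71.7%; 23.7% of all tested genes), above them for 2, and the groups overlapped for 13. Of the 53 genes, 8 fell by more than 1.5-fold, against 1077 of all 15712 tested genes (6.85%). Counted among genes that fell, this was 8 of 43 against 1077 of 4208. Tested against a change of 1.2-fold with edgeR's glmTreat, 23 of the 53 were lower and 1, PCNA, was higher, against 11.6% and 14.7% of all tested genes. In RNA from whole cultures, fewer cells in S phase and less of a transcript per cell cannot be told apart.

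**Figure D1:**
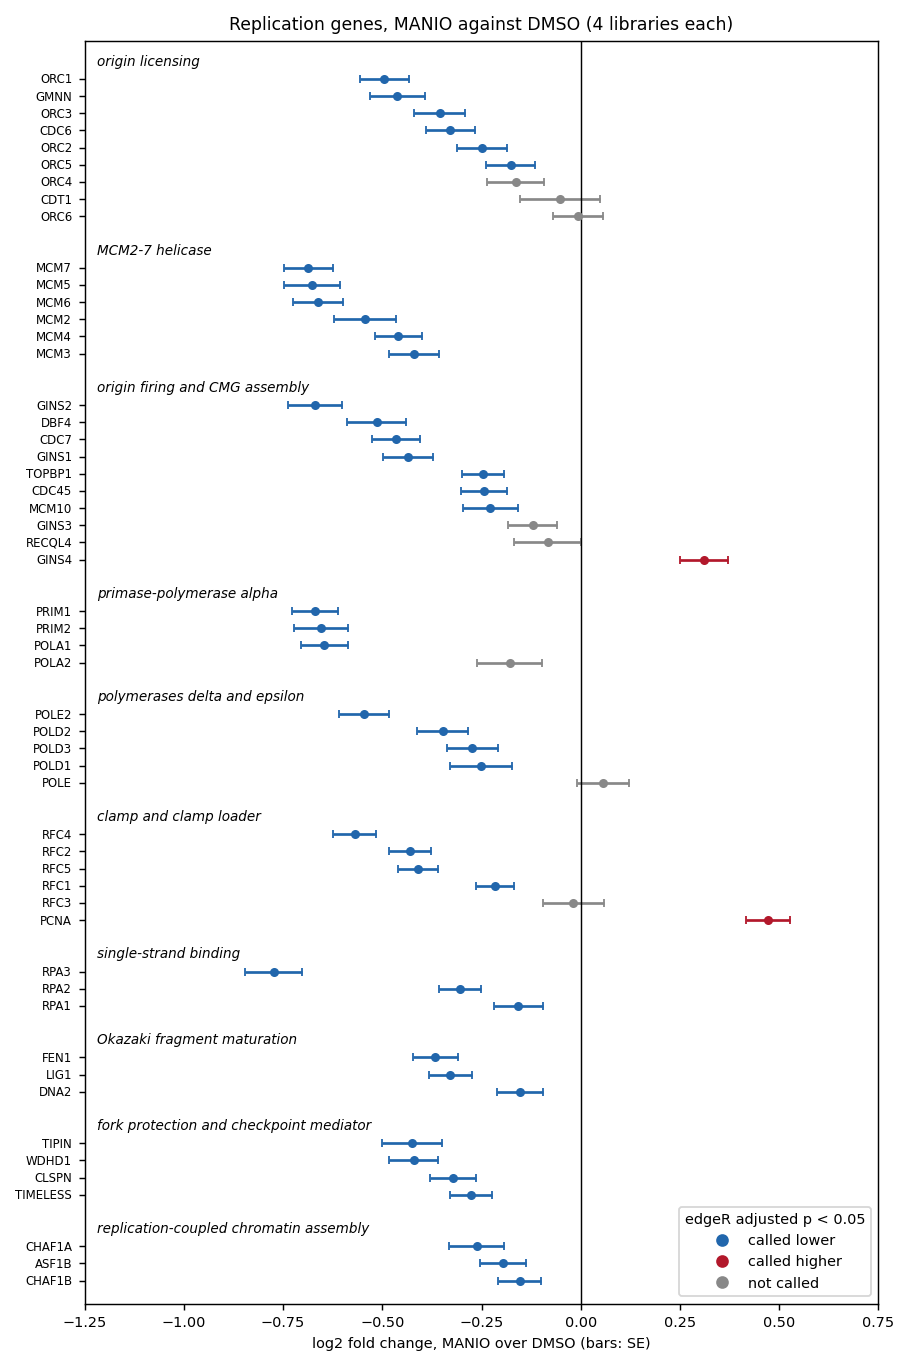
Log2 fold change (MANIO over DMSO, x axis) of each of the 53 replication genes, grouped by role, with bars of 1 SE from edgeR's quasi-likelihood fit of 4 against 4 libraries. Blue points passed the test downward, red points upward and grey points did not pass; PCNA and GINS4 stand to the right of 0 and RPA3 farthest to the left.

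The libraries held 27.9 to 31.8 M counts in DMSO and 29.3 to 32.5 M in MANIO, and the 53 genes took 0.630 to 0.708% of them in DMSO and 0.534 to 0.567% in MANIO. The p53 target genes CDKN1A and MDM2 rose 5.38-fold and 3.60-fold. Of 10 colon epithelial markers, EPCAM (293 ± 12.8 CPM in DMSO), CDH1 (102 ± 5.92 CPM), KRT8 and KRT18 were abundant, while VIL1, CDX1, CDH17 and LGALS4 stayed under 1 CPM in every library. Of 14 markers of immune, endothelial, fibroblast and muscle cells, 10 stayed under 1 CPM in every library. The sum of the 14 was 26.9 to 32.8 CPM in DMSO and 57.5 to 68.7 CPM in MANIO, nearly all of it COL1A1 and ACTA2. The fibroblast genes COL1A2, COL3A1 and DCN were among the 10 under 1 CPM. In ACTA2 30.1% of the exonic bases lie in exons of FAS and ACTA2-AS1 on the opposite strand. Whether reads of those genes contributed to this sum, and its part in the results below, was not tested. Mitochondrially encoded genes took 6.70 to 7.62% of the counts in MANIO and 4.82 to 5.21% in DMSO replicates 2 to 4, but 7.48% in DMSO replicate 1. The number of replication genes that fell was 42 without that library, and the share of all tested genes that fell in that fit is not given.

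DMSO replicate 1 and MANIO replicate 4 stood apart from the rest of their groups in a way that followed the GC content of the transcripts. Across the 53 genes, whose GC content ran from 37.6 to 65.3% with a median of 45.3%, a gene's deviation from its group mean in log2 CPM was correlated with its GC content at Spearman's rho = -0.76 in DMSO replicate 1 and -0.85 in MANIO replicate 4. In the other libraries rho lay between 0.088 and 0.72. The same 2 libraries had the lowest rho over all tested genes (-0.525 and -0.685). GC-rich genes were thus low in 1 library of each group. Without both libraries, 43 of the 53 genes fell and 2 rose, and the share of all tested genes that fell in that fit is not given. With a correction for GC content in each library, 44 fell and 2 rose, where 31% of the 15667 genes with a known GC content fell. The correction was fitted to each library's deviation from the mean of both groups together. It thus also takes out a GC-linked difference between the groups, where there is one. The correction and the joint omission were chosen after seeing the data.

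**Figure D2:**
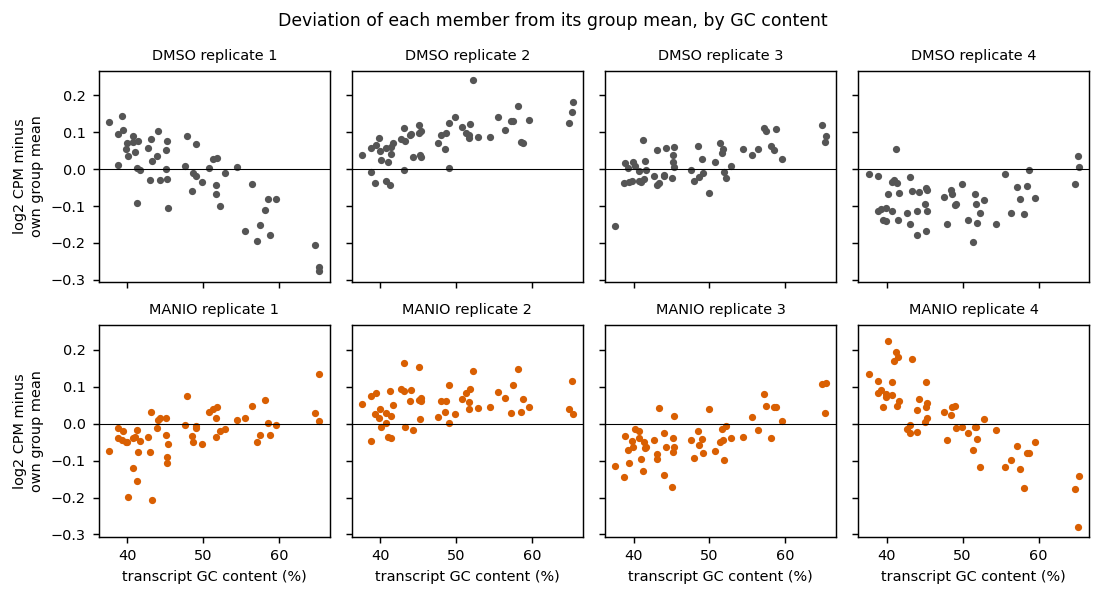
Deviation of each of the 53 genes from the mean of its own group (y axis, log2 CPM) against the GC content of its annotated transcripts (x axis, percent), with 1 panel per library. The points fall from left to right in DMSO replicate 1 and MANIO replicate 4, where rho was -0.76 and -0.85, and not in the other 6 panels.

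To show the promoters of these genes, the RefSeq windows from 250 bases before to 50 bases after each start (GRCh38.p14) were searched on both strands for 4 E2F-type words, TTTCCCGC, TTTCGCGC, TTTGCCGC and TTTGGCGC. Windows were at hand for 45 of the 53 genes. None was at hand for MCM4, MCM5, RECQL4, GINS4, POLD3, RPA2, RPA3 or DNA2, so GINS4, which rose, and RPA3, which fell most, are not in these counts. An E2F-type word was present in 19 of the 45 (42.2%), against 3.3% of all 34796 windows and 4.8% of the 15352 windows of tested genes. It was present in 13 of 37 genes that fell, in 5 of 7 that did not pass the test and in PCNA, which rose. The median log2 fold change was -0.33 with the word and -0.31 without it. Printed next are matches from 5 genes that fell, of the licensing, helicase, firing and polymerase groups, with the match in capitals and 11 bases on each side, read 5′ to 3′ on the gene's strand. They were cut to 30 bases because the windows overlap annotated exons, and MCM6 and POLE2 were added with their values known.
ORC3, chr6:87590112-87590141, plus strand: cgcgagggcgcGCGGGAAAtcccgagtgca
MCM6, chr2:135876577-135876606, minus strand: agggctttgcaTTTGGCGCgaaatcccttt
MCM7, chr7:100101388-100101417, minus strand: ggggggcgacgTTTCGCGCcaatttcggtt
GINS2, chr16:85688967-85688996, minus strand: ctctcgccgtgGCGGGAAAacggcggccgc
POLE2, chr14:49688201-49688230, minus strand: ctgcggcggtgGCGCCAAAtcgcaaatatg

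The same words stood in the promoters of the 6 genes with a match that did not fall, printed in the same way for comparison. They begin at positions -59 (PCNA) to -5 (GINS3) relative to the start.
PCNA, chr20:5126663-5126692, minus strand: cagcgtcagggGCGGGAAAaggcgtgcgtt
CDT1, chr16:88803743-88803772, plus strand: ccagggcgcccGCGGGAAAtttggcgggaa
GINS3, chr16:58392455-58392484, plus strand: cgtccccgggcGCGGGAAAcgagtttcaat
POLA2, chr11:65261898-65261927, plus strand: ttggctcccggTTTCGCGCatgcgtgcact
POLE, chr12:132687342-132687371, minus strand: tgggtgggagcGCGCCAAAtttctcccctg
RFC3, chr13:33818083-33818112, plus strand: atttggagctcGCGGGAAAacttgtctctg
The letters were thus present in genes that fell, in genes that did not pass and in PCNA, the only gene that rose with a window at hand. The NF-Y box CCAAT was found in 25 of the 45 windows (55.6%; 34.6% of all windows), and in 22 of the 37 genes that fell. An NRF1-type word was found in 11 (24.4%; 5.8% of all windows and 9.5% of those of tested genes), and the CHR-type word TTTGAA, known from genes of G2 and mitosis, in 2, DBF4 and ASF1B (4.4%; 15.2% of all windows and 10.3% of those of tested genes). MCM6 held the most E2F-type matches, 4 that overlap in pairs, beside 2 CCAAT boxes, and MCM7 held 2 beside 3 CCAAT boxes.

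Genes of origin licensing fell in part. Of the 9, 6 fell (66.7%), 0 rose and 3 missed the threshold, and the median log2 fold change was -0.25. Over all tested genes 26.8% fell and 27.8% rose, and 23.7% had every MANIO library below every DMSO library. ORC1, the subunit of ORC whose amount is known to vary through the cell cycle, had 59.9, 64.7, 60.7 and 54.3 CPM in DMSO replicates 1 to 4 and 43.4, 44.5, 40.4 and 41.7 CPM in MANIO replicates 1 to 4. The groups did not overlap (log2 fold change -0.49, SE 0.0625, adjusted p = 9.7e-06; edgeR). Smaller log2 fold changes were found for the other ORC subunits: ORC3 had a log2 fold change of -0.36, ORC2 one of -0.25 and ORC5 one of -0.18, whose call was lost in 5 of the 8 fits that left out 1 library. ORC4 (-0.16, adjusted p = 0.064) and ORC6 (-0.01, adjusted p = 0.93) did not pass edgeR's test. ORC6 was about as high in MANIO as in DMSO, at 47.5 ± 2.26 and 47.8 ± 3.27 CPM (SD, n = 4 each).

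The loader gene CDC6 fell by 20.4%, from 176 ± 13.9 to 140.0 ± 6.37 CPM (log2 fold change -0.33, SE 0.0615, adjusted p = 0.00035; edgeR). The other loader, CDT1, had 90.5, 121, 115 and 112 CPM in DMSO replicates 1 to 4 and 115, 114, 107 and 86.4 CPM in MANIO replicates 1 to 4. The lowest value of each group was that of the library with low GC-rich genes, and CDT1 has a GC content of 65.2%. Its log2 fold change was -0.05 (SE 0.100, edgeR adjusted p = 0.69), 0.03 without MANIO replicate 4 and -0.19 with the GC correction, where it passed (edgeR adjusted p = 0.00298). The sign of CDT1 thus turned without 1 library, and its call with the handling of GC content. GMNN encodes geminin, the inhibitor that binds CDT1 and keeps origins from being licensed again. It had 70.1, 68.3, 67.4 and 60.3 CPM in DMSO replicates 1 to 4 and 45.7, 46.9, 46.01 and 54.6 CPM in MANIO replicates 1 to 4, so that MANIO replicate 4 was the highest of its group and still below every DMSO library (log2 fold change -0.46, SE 0.0690, adjusted p = 4.7e-05; edgeR).

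All 6 genes of the MCM2-7 helicase fell (26.8% of all tested genes did), with non-overlapping groups (MANIO below for 23.7% of all tested genes). Their median log2 fold change of -0.60 was the second largest fall among the 10 role groups, after that of the primase and polymerase alpha genes. MCM7 (ENSG00000166508; chr7:100092728-100101940, minus strand, GRCh38) had 553, 613, 591 and 524 CPM in DMSO replicates 1 to 4 and 366, 372, 349 and 330.3 CPM in MANIO replicates 1 to 4. Every MANIO library lay well below every DMSO library (log2 fold change -0.69, SE 0.0608, adjusted p = 2.6e-07; edgeR). MCM5 had 243, 295, 289.6 and 255 CPM in DMSO replicates 1 to 4 and 166, 182, 175 and 155 CPM in MANIO replicates 1 to 4 (log2 fold change -0.68, SE 0.0700, adjusted p = 1.3e-06; edgeR). The lowest DMSO value of MCM5 was in replicate 1 and the lowest MANIO value in replicate 4, the libraries in which GC-rich genes were low. MCM6 fell by 36.8% and MCM2 by 31.4%, and MCM4 and MCM3 fell least, by 27.3% and 25.2%. Part of MCM2's exonic sequence (23.6%) lies in exons of genes on the other strand, so its count may include reads of those genes. Summed over the 6 genes, the level was 2057 to 2437 CPM in the DMSO libraries and 1436 to 1616 CPM in the MANIO libraries.

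**Figure D3:**
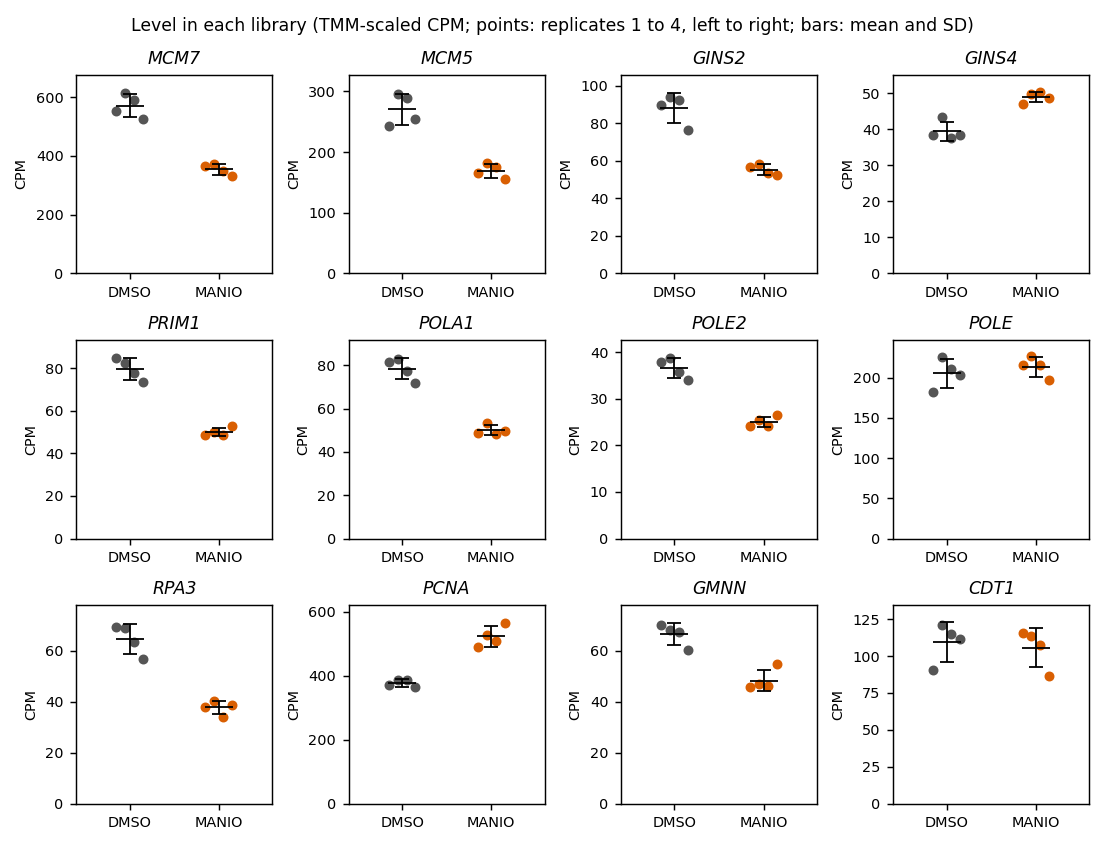
Level in each library (y axis, TMM-scaled CPM from 0) of 12 replication genes in DMSO and MANIO, with points for replicates 1 to 4 from left to right and bars for the mean and SD of 4 libraries. MCM7, MCM5, GINS2, PRIM1, POLA1, POLE2, RPA3 and GMNN are lower in every MANIO library, PCNA and GINS4 are higher in every MANIO library, and POLE and CDT1 overlap.

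Most genes that turn the loaded helicase into CMG fell, with GINS4 as the exception that rose. Of 10, 7 fell (70%, against 26.8% of all tested genes), 1 rose and 2 did not pass. CDC7, the kinase that triggers firing, had 69.1, 64.2, 65.5 and 64.2 CPM in DMSO replicates 1 to 4 and 43.7, 48.4, 46.9 and 51.4 CPM in MANIO replicates 1 to 4, and its activator DBF4 had 65.6, 64.99, 64.2 and 60.96 CPM in DMSO replicates 1 to 4 and 38.7, 44.2, 44.1 and 52.1 CPM in MANIO replicates 1 to 4. Both groups were apart for both genes (log2 fold change -0.47, SE 0.0597, adjusted p = 1.1e-05 for CDC7; log2 fold change -0.51, SE 0.0750, adjusted p = 3.8e-05 for DBF4; edgeR). DBF4 was highest among the MANIO libraries in replicate 4, as was CDC7. The CMG scaffold gene MCM10 (-0.23), TOPBP1, which binds the firing factors and also activates the ATR checkpoint (-0.25), and the helicase cofactor gene CDC45 (-0.24) fell as well, with the log2 fold changes given.

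RECQL4, a helicase gene needed for firing, did not pass the test. It had 153, 209.7, 197 and 186 CPM in DMSO replicates 1 to 4 and 176, 179, 189 and 159 CPM in MANIO replicates 1 to 4, with DMSO replicate 1 the lowest of all 8 libraries. Its GC content is 65.3%, and its log2 fold change of -0.08 (edgeR adjusted p = 0.43) became -0.17 without DMSO replicate 1 (edgeR adjusted p = 0.0335), -0.02 without DMSO replicate 2, -0.04 without MANIO replicate 4 and -0.22 with the GC correction (edgeR adjusted p = 4.72e-04).

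The 4 genes of the GINS complex, whose proteins are present in equal number in CMG, did not share a direction: 2 fell, 1 rose and 1 did not pass. Of all tested genes, 26.8% fell and 27.8% rose. GINS2 (ENSG00000131153; chr16:85676198-85690073, minus strand, GRCh38) had 89.5, 93.95, 92.1 and 76.5 CPM in DMSO replicates 1 to 4 and 56.8, 58.5, 53.4 and 52.5 CPM in MANIO replicates 1 to 4, a fall of 37.2% (log2 fold change -0.67, SE 0.0676, adjusted p = 9.8e-07; edgeR). GINS1 had 61.3, 62.5, 64.9 and 61.7 CPM in DMSO replicates 1 to 4 and 43.8, 51.8, 43.5 and 46.02 CPM in MANIO replicates 1 to 4 (log2 fold change -0.44, SE 0.0623, adjusted p = 3.2e-05; edgeR). GINS3 did not pass (-0.12, edgeR adjusted p = 0.11). GINS4 had 38.5, 43.5, 37.7 and 38.3 CPM in DMSO replicates 1 to 4 and 47.1, 49.9, 50.3 and 48.7 CPM in MANIO replicates 1 to 4, so that no MANIO library reached down to the DMSO range (log2 fold change 0.31, SE 0.0601, adjusted p = 0.00045; edgeR). In GINS4 23.6% of the exonic bases are shared with exons of other genes on the opposite strand. The library kit did not mark strand, and whether reads of those genes contributed to the rise was not tested.

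The primase and polymerase alpha genes had the largest median fall of the 10 role groups, -0.65 on the log2 scale. Of the 4, 3 fell (75%), against 26.8% of all tested genes. Primase makes the short RNA primer and polymerase alpha extends it. PRIM1 (ENSG00000198056; chr12:56731596-56752373, minus strand, GRCh38), the catalytic primase subunit, had 84.6, 82.6, 77.6 and 73.5 CPM in DMSO replicates 1 to 4 and 48.6, 50.03, 48.7 and 52.8 CPM in MANIO replicates 1 to 4, a fall of 37.1% (log2 fold change -0.67, SE 0.0587, adjusted p = 2.3e-07; edgeR). PRIM2, the large primase subunit, had 59.3, 57.8, 54.1 and 51.3 CPM in DMSO replicates 1 to 4 and 34.98, 37.2, 31.8 and 37.3 CPM in MANIO replicates 1 to 4, a fall of 36.5% (log2 fold change -0.65, SE 0.0674, adjusted p = 1.2e-06; edgeR). POLA1, the catalytic subunit of polymerase alpha, fell by 36.1%, from 78.4 ± 4.89 to 50.1 ± 2.27 CPM (log2 fold change -0.65, SE 0.0595, adjusted p = 3.8e-07; edgeR). The 3 genes thus fell by nearly the same factor. POLA2, the gene of the accessory subunit, did not pass (-0.18, edgeR adjusted p = 0.078), and 35.1% of its exonic bases are shared with another gene. With 1 library left out its log2 fold change ran from -0.23 (without MANIO replicate 2) to -0.09 (without DMSO replicate 2), and it passed in 3 of these 8 fits. It was -0.14 with total-count scaling (edgeR adjusted p = 0.174) and -0.20 with the GC correction (edgeR adjusted p = 0.0216). In PRIM1 21.6% of the exonic bases are shared with other genes, one of which is NACA.

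POLA1 and PRIM2 are the longest of the 53 genes, at 303 and 332 kb from first to last base. Long genes tended to fall in this comparison: the 2652 tested genes spanning over 100 kb had a median log2 fold change of -0.14 and the shorter ones a median of 0.03. The 5 replication genes that span over 100 kb had a median of -0.27, running from -0.65 (PRIM2 and POLA1) to -0.02 (RFC3), and the other 48 a median of -0.33. Spearman's rho between span and log2 fold change was 0.074 over the 53 genes, beside -0.15 over 15673 tested genes, and the difference between these values was not tested. Between mean DMSO level and log2 fold change rho was -0.175 over the 53 genes and -0.19 over all tested genes. The 53 genes had mean levels of 27.3 to 570 CPM in DMSO, and the part of level in their falls was not tested. Of the 35 replication genes spanning under 50 kb, 29 fell and 2 rose, beside 26.8% and 27.8% of all tested genes of any span. The promoter of POLA1 is printed as the 250 bases before its start (chrX:24693668-24693917, plus strand), with the E2F-type match in capitals, since POLA1 has the smallest p among the genes of its role group with such a match and no annotated exon lies in these bases.
POLA1: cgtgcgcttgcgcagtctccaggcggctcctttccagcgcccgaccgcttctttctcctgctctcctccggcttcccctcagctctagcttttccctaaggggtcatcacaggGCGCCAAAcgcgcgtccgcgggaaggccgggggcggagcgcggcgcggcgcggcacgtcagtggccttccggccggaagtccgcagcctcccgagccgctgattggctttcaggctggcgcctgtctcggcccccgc

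Of the 5 genes of the replicative polymerases delta and epsilon, 4 fell (80%, against 26.8% of all tested genes) and 1, POLE, did not pass. POLE, the catalytic subunit of the leading-strand polymerase epsilon, had 182, 226, 210.3 and 203 CPM in DMSO replicates 1 to 4 and 215, 227, 216 and 196 CPM in MANIO replicates 1 to 4, and the groups overlapped (log2 fold change 0.06, SE 0.0658, adjusted p = 0.49; edgeR). Its partner POLE2 had 37.98, 38.8, 35.7 and 34.00 CPM in DMSO replicates 1 to 4 and 24.2, 25.4, 24.2 and 26.5 CPM in MANIO replicates 1 to 4, a fall of 31.5% with groups apart (log2 fold change -0.55, SE 0.0625, adjusted p = 3.6e-06; edgeR). For polymerase delta, which copies the lagging strand, POLD2 had 149, 178, 182 and 169 CPM in DMSO replicates 1 to 4 and 130.3, 139.5, 137 and 126 CPM in MANIO replicates 1 to 4 (log2 fold change -0.35, SE 0.0638, adjusted p = 3e-04; edgeR). POLD3 fell by 17.2%, and POLD1, the catalytic subunit, fell by 15.96% with overlapping groups (edgeR adjusted p = 0.014), a call that was lost without DMSO replicate 3 (adjusted p = 0.0531). POLD1 is GC-rich at 64.8%, and its lowest values were in DMSO replicate 1 and MANIO replicate 4.

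PCNA was the member that rose the most. It encodes the ring that holds the polymerases on DNA and is known both as an E2F and as a p53 target. PCNA (ENSG00000132646; chr20:5114953-5126626, minus strand, GRCh38) had 371, 388, 388 and 364 CPM in DMSO replicates 1 to 4 and 491, 528, 509 and 566 CPM in MANIO replicates 1 to 4, a rise of 38.6% (log2 fold change 0.47, SE 0.0554, adjusted p = 4.8e-06; edgeR). The lowest MANIO library lay at 491 CPM and the highest DMSO library at 388 CPM. PCNA and RPA2 have 3 annotated pseudogenes each, and DBF4, POLD2, RFC3, RFC5 and FEN1 have 1 each; how reads with several matches were counted is not stated in the labels. The genes of RFC, the complex that opens PCNA and loads it, went the other way: 4 of 5 fell and 0 rose. Over all tested genes 26.8% fell and 27.8% rose. RFC4 had 85.97, 89.7, 91.3 and 83.9 CPM in DMSO replicates 1 to 4 and 59.7, 58.3, 56.6 and 61.9 CPM in MANIO replicates 1 to 4 (log2 fold change -0.57, SE 0.0532, adjusted p = 4.3e-07; edgeR), RFC2 had a log2 fold change of -0.43, RFC5 one of -0.41 and the large subunit gene RFC1 one of -0.22. RFC3 ranged from 54.2 to 61.1 CPM in DMSO and from 51.0 to 65.1 CPM in MANIO and did not pass (-0.02, edgeR adjusted p = 0.86).

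All 3 genes of RPA, the complex that coats single-stranded DNA, fell (26.8% of all tested genes did). RPA3 (ENSG00000106399; chr7:7636518-7718607, minus strand, GRCh38), the smallest subunit, had 69.2, 68.8, 63.5 and 56.8 CPM in DMSO replicates 1 to 4 and 37.96, 40.2, 34.2 and 38.7 CPM in MANIO replicates 1 to 4, a fall of 41.5% and the largest among the 53 genes (log2 fold change -0.77, SE 0.0720, adjusted p = 4.3e-07; edgeR). RPA2, the subunit phosphorylated under replication stress, had 108, 103, 105 and 96.3 CPM in DMSO replicates 1 to 4 and 83.2, 83.7, 81.3 and 86.4 CPM in MANIO replicates 1 to 4 (log2 fold change -0.30, SE 0.0522, adjusted p = 0.00017; edgeR). RPA1, the large DNA-binding subunit, had 261, 261, 239.7 and 221 CPM in DMSO replicates 1 to 4 and 232, 229.9, 207 and 214 CPM in MANIO replicates 1 to 4. Its groups overlapped and its fall of 10.3% passed narrowly (edgeR adjusted p = 0.045), a call lost in 6 of the 8 fits that left out 1 library. RPA3 shares 3.7% of its exonic bases with genes on the other strand.

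Genes that process and join Okazaki fragments, the short pieces of the lagging strand, fell in 3 of 3 cases (26.8% of all tested genes fell). FEN1, the flap nuclease, had 165, 175, 171 and 148 CPM in DMSO replicates 1 to 4 and 129, 132, 124 and 126 CPM in MANIO replicates 1 to 4 (log2 fold change -0.37, SE 0.0568, adjusted p = 6.6e-05; edgeR). LIG1, the ligase that seals the pieces, had 129, 144, 141 and 132 CPM in DMSO replicates 1 to 4 and 109, 111, 112 and 103 CPM in MANIO replicates 1 to 4 (log2 fold change -0.33, SE 0.0540, adjusted p = 0.00011; edgeR). DNA2, a nuclease and helicase, fell by 10.1% from 29.3 ± 0.353 CPM (edgeR adjusted p = 0.039). MANIO replicate 4 was the only MANIO library near the DMSO range for DNA2, and the call was lost in 7 of the 8 fits that left out 1 library.

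All 4 genes of fork protection fell with groups apart. Over all tested genes 26.8% fell, and 23.7% had every MANIO library below every DMSO library. TIPIN, the partner of TIMELESS, had 38.1, 39.5, 36.5 and 35.95 CPM in DMSO replicates 1 to 4 and 24.02, 27.6, 28.7 and 31.5 CPM in MANIO replicates 1 to 4. Its log2 fold change was -0.42 (SE 0.0749, edgeR adjusted p = 0.00021), and 21.0% of its exonic bases lie in the ribosomal protein pseudogene RPL9P25 on the same strand. TIMELESS had 146, 159.5, 156 and 141 CPM in DMSO replicates 1 to 4 and 126, 128, 120.4 and 123 CPM in MANIO replicates 1 to 4 (log2 fold change -0.28, SE 0.0535, adjusted p = 0.00046; edgeR). WDHD1, which links the helicase to polymerase alpha, had 95.1, 83.8, 86.2 and 79.8 CPM in DMSO replicates 1 to 4 and 62.4, 65.5, 61.2 and 68.5 CPM in MANIO replicates 1 to 4 (log2 fold change -0.42, SE 0.0622, adjusted p = 4.4e-05; edgeR). CLSPN, the mediator that lets ATR activate the kinase CHK1, fell by 19.97%.

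Genes of chromatin assembly behind the fork had the smallest median fall of the 10 role groups. CHAF1A, the large subunit of the histone chaperone CAF-1, had 82.3, 103, 102 and 91.1 CPM in DMSO replicates 1 to 4 and 76.2, 80.4, 83.3 and 75.5 CPM in MANIO replicates 1 to 4, with overlapping groups (log2 fold change -0.26, SE 0.0697, adjusted p = 0.0051; edgeR). ASF1B, a chaperone that hands histones to CAF-1, had 93.2, 108, 101 and 93.5 CPM in DMSO replicates 1 to 4 and 86.1, 89.1, 86.7 and 83.4 CPM in MANIO replicates 1 to 4 (log2 fold change -0.20, SE 0.0576, adjusted p = 0.0095; edgeR). CHAF1B had 59.9, 64.8, 65.2 and 59.9 CPM in DMSO replicates 1 to 4 and 54.9, 57.4, 55.3 and 57.1 CPM in MANIO replicates 1 to 4. It fell by 10.1% (edgeR adjusted p = 0.025), a call lost in 4 of the 8 fits that left out 1 library. Their median log2 fold change was -0.20.

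**Figure D4:**
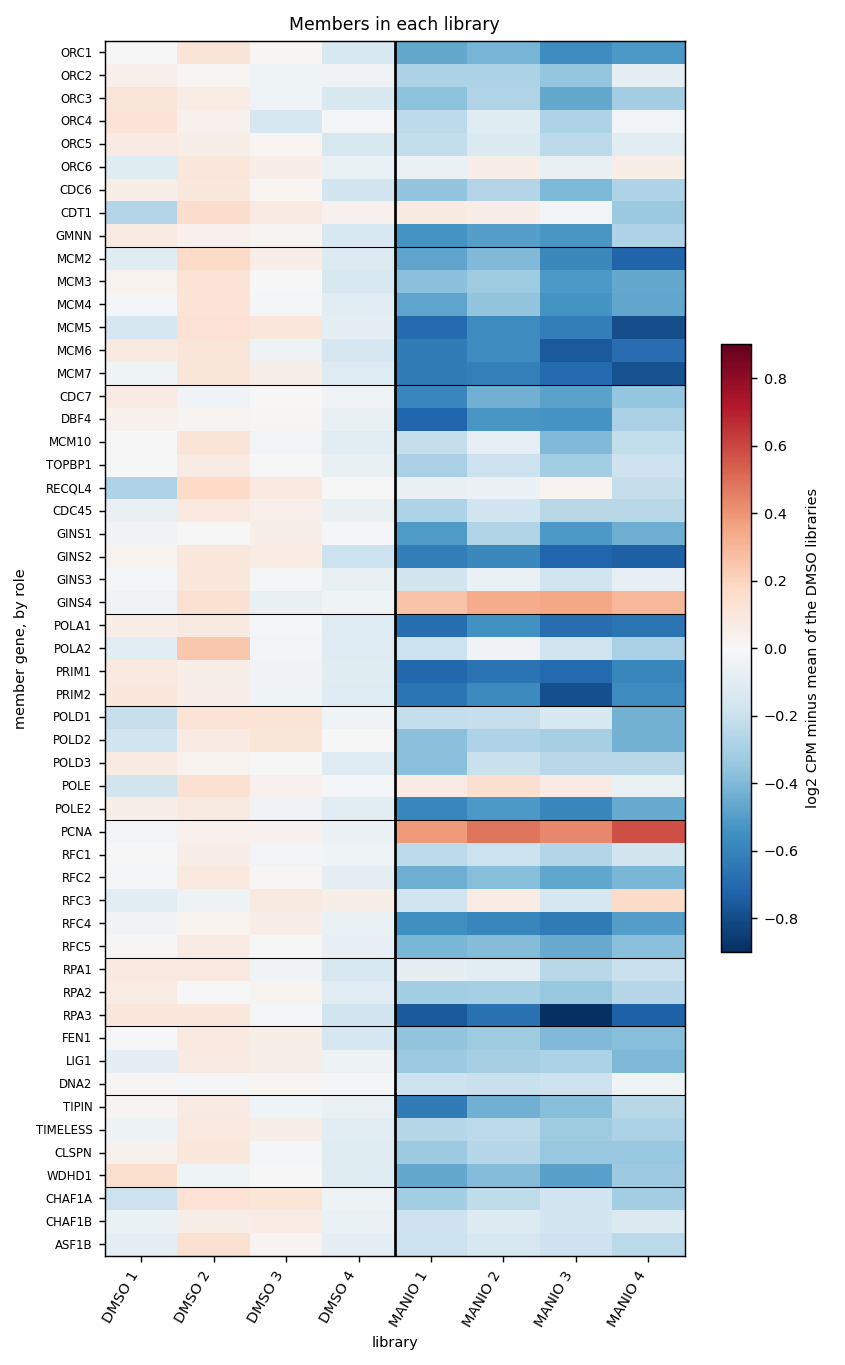
Level of each of the 53 genes in each library as log2 CPM minus the mean of the DMSO libraries (colour), with genes in rows by role and libraries in columns. The MCM2-7, primase and RPA3 rows are blue in all 4 MANIO columns, PCNA and GINS4 are red in all 4, and CDT1, RECQL4 and POLE show their lowest DMSO value in replicate 1.

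Whether genes of partner proteins changed unequally was tested with the log2 ratio of their CPM in each library (8 pairs, exact two-sided permutation test over 70 assignments of the libraries, for which 0.0286 is the smallest p). The pairs were chosen with earlier results of these data known. The ratio of GINS4 to GINS1 was -0.67, -0.52, -0.78 and -0.68 in the DMSO libraries and 0.11, -0.05, 0.21 and 0.08 in the MANIO libraries, a difference of 0.74. For RPA3 over RPA1 it was -1.91, -1.92, -1.91 and -1.95 in DMSO and -2.60, -2.50, -2.58 and -2.45 in MANIO, a difference of -0.61. For POLE2 over POLE it was -2.25, -2.53, -2.54 and -2.56 in DMSO and -3.13, -3.13, -3.13 and -2.86 in MANIO, a difference of -0.59. In each of these 3 pairs the groups did not overlap and the exact p was 0.0286, which became 0.0763 after adjustment over the 8 pairs. With 8 pairs none could pass 0.05 after adjustment unless at least 5 reached the smallest p, so missing that threshold says little. Because the pairs were chosen with earlier results known, reaching the smallest p of 0.0286 says little as well. CDT1 over GMNN differed by 0.41 with overlapping groups (exact p = 0.114, adjusted 0.228). MANIO replicate 4 had a ratio of 0.66 and the other 3 MANIO libraries ratios of 1.21 to 1.33. DMSO replicate 1 had a ratio of 0.37 and the other DMSO libraries ratios of 0.76 to 0.88. In these 2 libraries GC-rich genes were low, and the GC content is 65.2% for CDT1 and 41.45% for GMNN. The part of GC content in this ratio was not tested.

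The other 4 pairs had overlapping groups. The ratio of PRIM1 to PRIM2 was 0.512 ± 0.00425 in DMSO and 0.498 ± 0.0773 in MANIO (SD, n = 4 each; exact p = 0.714). The difference was -0.05 for DBF4 over CDC7 (exact p = 0.257), -0.15 for TIPIN over TIMELESS (exact p = 0.2) and 0.10 for CHAF1B over CHAF1A (exact p = 0.171). With 1 library left out these ran from -0.09 to -0.03 (lowest without MANIO replicate 4, highest without MANIO replicate 1), from -0.21 to -0.07 (the same libraries) and from 0.08 to 0.15 (highest without DMSO replicate 1).

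Levels of different genes were compared per length, as CPM per kilobase of merged exon (RPKM), a scale that underestimates genes with long unused exons. PCNA was the highest of the 53 genes in DMSO, at 257 ± 8.14 RPKM, followed by MCM7 at 129.97 ± 8.96 and MCM3 at 122 ± 9.30, which lay within their SDs of each other. In MANIO PCNA stood at 356 ± 21.6 RPKM, MCM3 at 91.4 ± 5.46 and MCM7 at 80.8 ± 4.23. Within the helicase, MCM5 was the lowest in DMSO, at 36.9 ± 3.52 RPKM. The lowest of the 53 genes in DMSO were GINS3 at 5.35 ± 0.270 RPKM and POLD3 at 5.70 ± 0.321.

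Further replication genes outside the 53 were examined as a second list. Of the 54 tested, 21 fell (38.9%), 8 rose (14.8%) and 25 missed the threshold, against 26.8% and 27.8% of all tested genes that fell and rose. Their median log2 fold change was -0.11. The lowest of those that passed were MCM9, a helicase paralog of repair (-0.55, from 22.6 ± 0.513 to 15.5 ± 0.805 CPM), and SSRP1, a subunit of the histone chaperone FACT (-0.52, from 447 ± 20.9 to 312 ± 5.18 CPM). The highest of those that passed were FAM111A, a protease that binds PCNA (0.65, from 86.96 ± 1.31 to 136 ± 9.38 CPM), and POLD4, the small subunit of polymerase delta (0.37, from 6.56 ± 0.404 to 8.47 ± 0.332 CPM). PCLAF, which encodes a PCNA-binding factor, lay between them at 0.45 without passing (edgeR adjusted p = 0.14). DBF4B, the paralog of DBF4, rose by 0.26 on the log2 scale while DBF4 fell, and both it and PCLAF were named after their values were seen.

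Of 26 tested cyclins, kinases, E2F and RB family genes of the G1/S step, 7 fell (26.9%) and 8 rose (30.8%), shares near the 26.8% and 27.8% of all tested genes, with a median of -0.01. The lowest were LIN52, a subunit of the DREAM repressor (-0.68), and the pocket protein gene RBL1 (-0.64), and the highest were the cyclin gene CCND1 (0.75) and the repressor gene E2F7 (0.73). Of 22 genes that supply nucleotides, 8 fell (36.4%) and 7 rose (31.8%), with a median of 0.06. They ran from the thymidylate kinase gene DTYMK (-0.41) and the deoxycytidine kinase gene DCK (-0.40) to NME2 (0.38) and the p53 target RRM2B (1.14). NME2 was low, at 5.16 ± 0.587 CPM in DMSO, and its groups overlapped (edgeR adjusted p = 0.014). In NME2 22.9% of the exonic bases are shared with NME1-NME2 on the same strand. Of 36 mitosis genes, 31 fell and 1, CDK1, rose (0.22), with a median of -0.44 and the largest falls in DLGAP5 (-0.80) and CENPA (-0.63). The share that fell was thus 81.1% among the replication genes, 86.1% among the mitosis genes and 38.9% among the further replication genes, and the difference between lists was not tested.

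**Figure D5:**
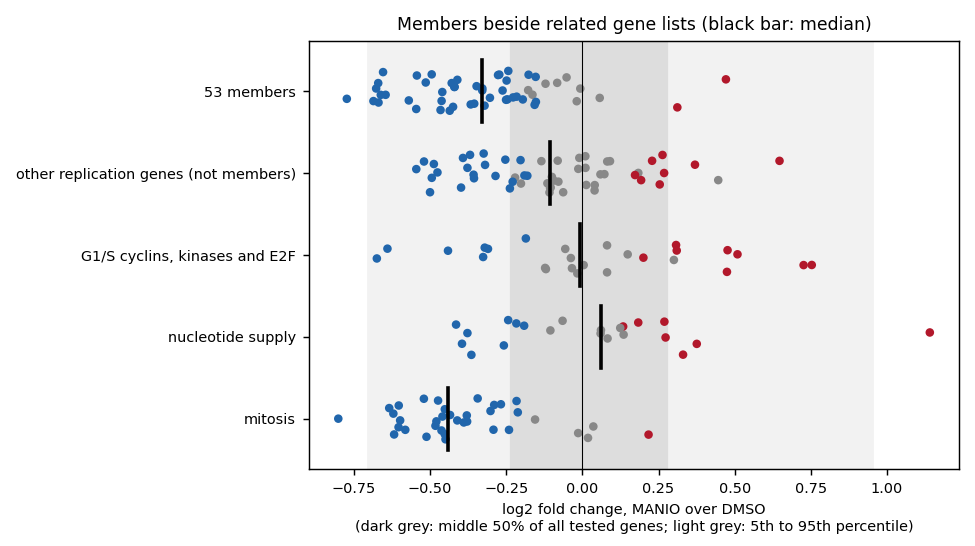
Log2 fold change (x axis) of every tested gene of 5 lists, with a black bar at each median, blue for genes that fell, red for genes that rose and grey for those that did not pass the test. Bands show where the middle 50% of all tested genes and the 5th to 95th percentiles lie; the medians of the 53 replication genes (-0.33) and of the mitosis genes (-0.44) lie left of the dark band, which ends at -0.24.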

How the data were processed

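RNA of 8 cultures was made into TruSeq RNA v2 libraries, a kit that does not mark strand, and sequenced on an Illumina HiSeq instrument, per the labels' protocols. The authors deposited 1 table of raw read counts per gene. Per the submitters' processing notes, FastQC 1.3, STAR 2.5.3a, HTSeq and DESeq2 were used with GRCh38; which annotation and strand setting were used, and how reads with several matches were counted, is not stated there. The replicates are called biological, with nothing further on their source. No 2 libraries of a group were alike within sampling noise (the lowest chi-square of a pair, divided by its degrees of freedom, was 3.6).

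Counts were fitted with edgeR 4.0.16 (R 4.3.3) on all genes that passed filterByExpr, with TMM scaling, a robust quasi-likelihood fit and Benjamini-Hochberg adjustment over 15712 genes. SE is the absolute log2 fold change divided by the square root of F. CPM are TMM-scaled, and 0.5 CPM was added before log2 ratios. Each symbol had its row taken by name, and where a symbol was repeated, the row with the most counts. Exons, spans, overlaps and GC content are from GENCODE v29 on GRCh38, which held 15673 of the 15712 tested genes. Promoter sequences are RefSeq's (GRCh38.p14). DESeq2 1.42.0, other scalings and filters, a replicate block, a 1.2-fold limit and leaving out each library were tried as alternatives.

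The genes and lists were chosen with earlier results of these data known. Genes given library by library are, in each role group, the 2 called ones with the largest absolute log2 fold change, any called against the group's majority, both genes of each partner pair and PCNA. From the other lists the 2 lowest and up to 2 highest called genes are named. These are given by log2 fold change, some with group means and SDs, and not library by library. RECQL4 was added after its values were seen.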

Additional observations from a re-analysis of the deposited data

Results flagged for a closer look

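In 4 of 106 groups of 4 libraries, 1 per replication gene and treatment, 1 library lay far from the other 3, by the share of the group's range that its gap to them takes (Dixon's 95% limit); chance gives about 1 in 20 groups. GMNN stood at 54.6 CPM in MANIO replicate 4, against 45.7 to 46.9 CPM in the other MANIO libraries. DNA2 stood at 28.6 CPM in the same library, against 25.5 to 25.8 CPM. GINS4 stood at 43.5 CPM in DMSO replicate 2, against 37.7 to 38.5 CPM in the other DMSO libraries and 47.1 to 50.3 CPM in MANIO. CLSPN stood at 50.7 CPM in MANIO replicate 2, against 47.7 to 48.1 CPM in the others.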

How the results depend on the processing

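The count of replication genes that fell was 43 with DESeq2 and with RLE scaling, 44 with upper-quartile scaling, 39 with total-count scaling (which moved the median of all genes from 0.0043 to 0.042), 44 with no filter on low counts and 42 with a 1 CPM filter; 2 rose under each. Leaving out 1 library gave 39 to 43 that fell, 2 that rose and medians of -0.354 to -0.304. Against a 1.2-fold limit 23 fell and 1 rose, where 11.6% of all tested genes were lower and 14.7% higher. Among the 46 genes with under 10% of overlapped exonic bases 39 fell and 1 rose in the main fit, since GINS4 is not among them. In that fit 26.8% of all tested genes, of any overlap, fell and 27.8% rose. The share of all tested genes that fell is not given for the other settings of this section.

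For 42 genes direction and call held under every alternative but the 1.2-fold limit (38 lower, 2 higher, and GINS3 and POLE not called). The other 11 were CDT1, CHAF1B, DNA2, ORC4, ORC5, ORC6, POLA2, POLD1, RECQL4, RFC3 and RPA1. ORC6 turned to a log2 fold change of 0.0301 with total-count scaling and 0.0411 with the GC correction, and ranged from -0.0606 to 0.0271 with 1 library, or both that stood apart, left out. RFC3 turned to 0.0182 and 0.0452, and ranged from -0.1169 to 0.033. CDT1 ranged from -0.1351 to 0.0337. The log2 ratio of PRIM1 to PRIM2 differed by -0.0506 to 0.0101 with 1 library left out. The cause of these turns was not tested. With the 1.2-fold limit 9 of the 54 further replication genes were lower and 1 higher, and 3 and 5 of the 26 G1/S genes. Of the 22 nucleotide genes 2 were lower and 1 higher, and of the 36 mitosis genes 22 and 0. Over all tested genes 11.6% were lower and 14.7% higher with this limit.

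The replicate block gave 45 that fell and 2 that rose (median -0.33), with ORC4 (edgeR adjusted p = 0.0455) and POLA2 (0.0217) gained. The same-numbered libraries' deviations were correlated at 0.013, 0.213, 0.2 and 0.109, and not every library correlated best with its own number, so the numbers were not taken to pair the cultures.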
